A study of Mus musculus with 12 samples.

Results

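The Hox genes, read here as all 33 genes whose array symbol is Hox followed by a cluster letter from a to d and a paralogue number, were followed through the seminal vesicles of adult male mice. They were picked by symbol from 30063 named genes, with earlier results of these data known. Cluster A on chromosome 6 held 8 members and cluster B on chromosome 11 held 9. Cluster C on chromosome 15 held 9 and cluster D on chromosome 2 held 7. Each member was read by 1 probe set, so its level was compared between groups and never with the level of another gene. A further 4 probe sets carry several symbols, among them Hoxa7, Hoxa9, Hoxb4, Hoxd3 and Hoxd4, and these genes were not analysed here.

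Hox genes encode homeodomain transcription factors that give cells their position along the body axis. Within a cluster the genes lie in the order in which they are used: low-numbered paralogues at the 3′ end act towards the head, and high-numbered paralogues at the 5′ end act towards the tail. The 5′ genes pattern the limbs, the hindgut and the urogenital tract. In males the paralogues near the 5′ end shape the Wolffian duct and its derivatives, including the seminal vesicle, and the prostate, and loss of Hoxa13, Hoxd13, Hoxa10 or Hoxa11 is known to alter these glands. In the RefSeq annotation of GRCm38.p6 the paralogue numbers followed the chromosome order in 4 of 4 clusters.

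The study crossed genotype with exposure in C57BL/6 males, with 3 arrays in each of 4 groups and tissue taken at week 10. WT_vehicle animals were wild type and received corn oil, and WT_DES animals were wild type and received diethylstilbestrol (DES), a synthetic estrogen, in the same oil. The aERKO_vehicle and aERKO_DES groups received the same injections but carried the aERKO genotype, read here from its name as a loss of estrogen receptor alpha; the labels do not name the allele. DES was injected subcutaneously at a daily dose of 2 µg for each pup from day 1, the day of birth, to day 5, so the tissue was examined weeks after the last dose. The labels do not say whether the 3 samples of a group are 3 animals, so the spread behind the p-values may be technical in part. The comparisons ask how neonatal DES alters Hox expression in the adult gland and whether that depends on the receptor.

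Values are log2 expression, so a difference of 1 is a 2-fold change. Esr1, the gene of the missing receptor, read 7.80, 7.66 and 7.80 in WT_vehicle, 7.74, 7.68 and 7.55 in WT_DES, 7.01, 7.09 and 6.88 in aERKO_vehicle and 6.81, 6.99 and 6.90 in aERKO_DES. All 6 aERKO arrays lay below all 6 WT arrays, as the labels have it; whether the probe set lies inside the deleted part is not known here. The seminal vesicle secretory genes averaged 13.3 to 13.6 on the WT_DES arrays and 13.7 to 13.9 on all others. Markers of epididymis and vas deferens averaged 5.95 to 6.29, near the array medians of 5.95 to 6.14. The WT_DES arrays stood apart from all others: arrays within a group correlated at 0.982 to 0.996 over genes, WT_DES arrays with the rest at 0.867 to 0.919. The mean of the 4 hybridization controls was -0.36 in WT_DES relative to WT_vehicle, and this bears on every small decline below. These controls are added at the hybridization step, so they do not measure the amount of RNA in the tissue.

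Of the 33 Hox genes, 28 passed the filter on low values and entered limma's test. Hoxa2, Hoxc4, Hoxc5, Hoxc10 and Hoxd1 did not, with values between 4.03 and 6.06. Hox signals were modest: 30 members lay above the mean of the 23 background control probe sets (5.20) on all 12 arrays, and Hoxc10 lay below it on all 12. Those controls run from 2.09 to 9.07 with their base composition, and 4 members, Hoxb5, Hoxb6, Hoxb8 and Hoxd13, exceeded the highest control of the same array on at least 1 array. Precision is limited by the 3 arrays of each group.

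In wild-type males 14 of the 28 tested Hox genes differed between DES and vehicle at an adjusted p under 0.05 (limma, Benjamini-Hochberg over 20102 genes). Hoxd13 and Hoxd10 rose, and 12 genes fell: Hoxb13, Hoxd8, Hoxc12, Hoxa4, Hoxb8, Hoxd9, Hoxb1, Hoxc6, Hoxb9, Hoxc11, Hoxb2 and Hoxa3. In the same comparison 43.9% of all genes tested were called, 20.7% higher and 23.3% lower. The 50% of Hox genes called is therefore near the background, and the direction of the smaller declines depended on scaling, as given below. The median difference was -0.17 over the tested Hox genes and -0.05 over all genes. The values of WT_DES and WT_vehicle did not overlap for 18 of the 28 genes, against 60.9% of all genes.

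Along the clusters the pattern was uneven. Cluster D held both rises and 2 declines among 6 tested genes, cluster B had 5 declines among 9, cluster C 3 among 6 and cluster A 2 among 7. Paralogues 1 to 8 gave 0 higher and 7 lower of 14 tested, with a median of -0.23, and paralogues 9 to 13 gave 2 higher and 5 lower of 14, with a median of -0.04. The 7 called genes with low paralogue numbers all fell, whereas both directions occurred among the posterior genes; under scaling to the hybridization controls none of those 7 kept its call.

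**Figure D1:**
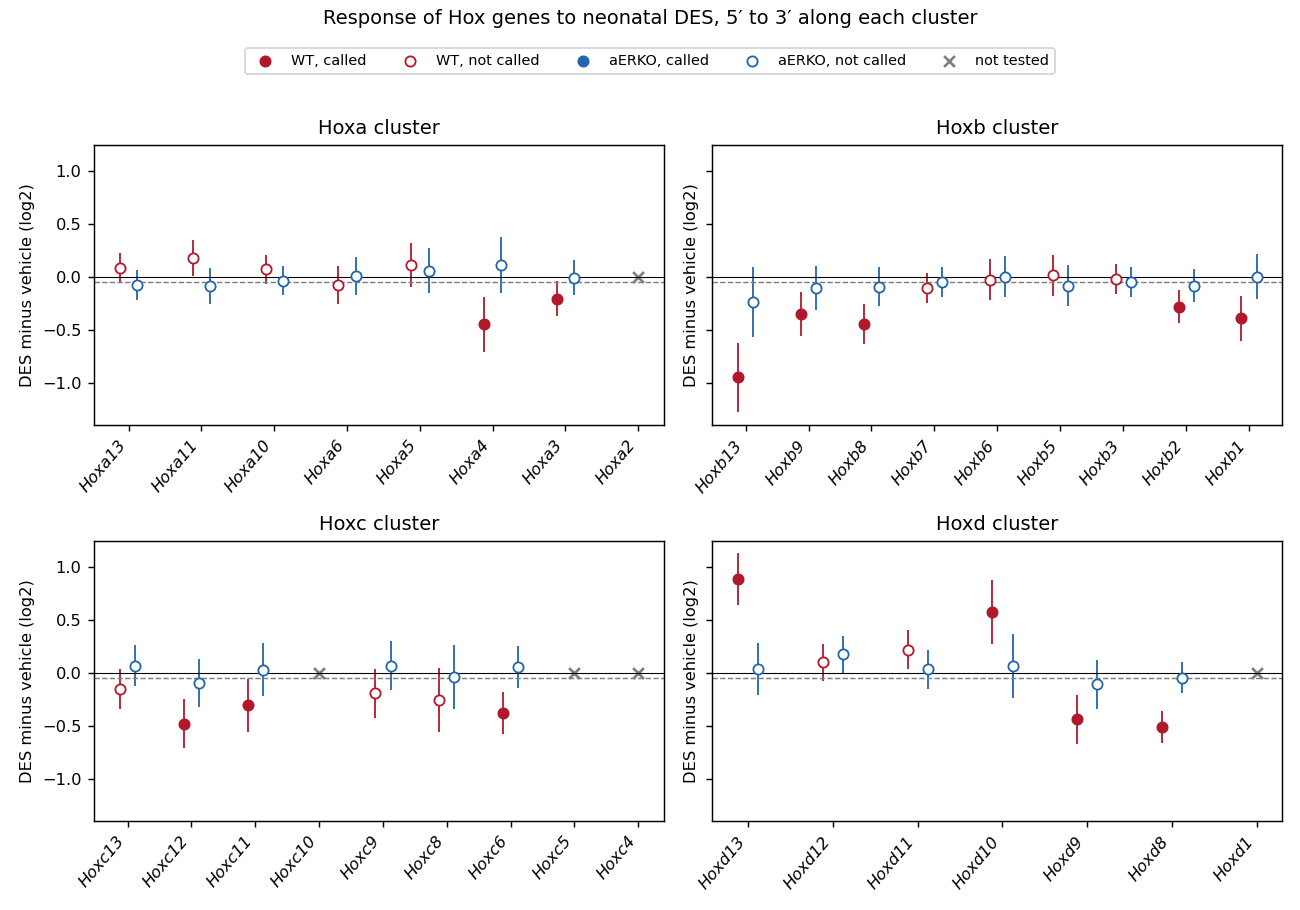
Log2 difference between DES and vehicle (vertical axis, with 95% confidence intervals) for the Hox genes in 5′ to 3′ order along each cluster (horizontal axis), in WT (red) and aERKO (blue); filled points passed limma's threshold, crosses mark genes that were not tested, and the dashed line is the median of all genes in WT. Hoxd13 and Hoxd10 lie above the line and Hoxb13 lies lowest in WT, while no aERKO point is filled.

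Marker lists of other cell types also differed in WT_DES, and their part in the Hox values was not tested. The counts below stand beside 20.7% higher and 23.3% lower of all genes, or 41.5% and 1.74% with the hybridization controls. Fibroblast markers averaged 8.17 to 8.43 per array in WT_vehicle and 9.60 to 10.1 in WT_DES, with 14 of 14 higher. Macrophage markers averaged 7.30 to 7.54 and 9.20 to 9.61 in these groups, with 14 of 14 higher. The averages of neutrophil markers were 5.80 to 5.84 and 7.996 to 8.44 (9 of 12 higher), and those of T and B cell markers 6.14 to 6.33 and 7.55 to 7.96 (10 of 11 higher). Basal epithelial markers were higher for 11 of 11 genes and endothelial markers for 9 of 11. Smooth muscle markers went the other way, with averages of 10.6 to 10.8 and 10.2 to 10.4; 11 of 14 were lower, and 1 of 14 after scaling to the hybridization controls. Luminal epithelial markers were split, with 7 higher and 6 lower of 16, but 9 and 0 after scaling to the hybridization controls. Of 11 seminal vesicle secretory genes, 0 were higher and 7 lower, or 0 and 1 after that scaling. In bulk tissue, fewer cells of a type and less RNA per cell cannot be told apart.

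Cluster D carried the largest rise and a change of direction between neighbours. Its 5′ genes Hoxd13 to Hoxd10 had positive differences in WT_DES, and the adjacent Hoxd9 and Hoxd8 had negative ones. The start regions of the 4 called genes are shown because they lie in the same cluster, Hoxd10 directly beside Hoxd9, yet moved in opposite directions; each is a window of 300 bases that begins before the RefSeq start in GRCm38.p6 and ends just past it, written 5′ to 3′. Capitals mark GGTCA, the core of an estrogen response element, or its reverse complement TGACC.
Hoxd13 (chr2:74667975-74668274, plus strand): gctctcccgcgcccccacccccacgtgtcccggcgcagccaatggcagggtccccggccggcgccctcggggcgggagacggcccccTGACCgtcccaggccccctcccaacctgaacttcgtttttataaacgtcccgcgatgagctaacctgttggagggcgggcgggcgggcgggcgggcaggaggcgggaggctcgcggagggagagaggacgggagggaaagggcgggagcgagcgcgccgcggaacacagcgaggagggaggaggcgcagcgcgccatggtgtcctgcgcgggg
Hoxd10 (chr2:74691641-74691940, plus strand): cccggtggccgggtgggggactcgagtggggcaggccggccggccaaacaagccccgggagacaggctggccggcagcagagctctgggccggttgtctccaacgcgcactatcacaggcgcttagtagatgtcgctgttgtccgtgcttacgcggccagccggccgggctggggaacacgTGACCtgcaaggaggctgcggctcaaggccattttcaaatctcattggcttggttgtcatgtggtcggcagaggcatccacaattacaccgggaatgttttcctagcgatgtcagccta
Hoxd9 (chr2:74697513-74697812, plus strand): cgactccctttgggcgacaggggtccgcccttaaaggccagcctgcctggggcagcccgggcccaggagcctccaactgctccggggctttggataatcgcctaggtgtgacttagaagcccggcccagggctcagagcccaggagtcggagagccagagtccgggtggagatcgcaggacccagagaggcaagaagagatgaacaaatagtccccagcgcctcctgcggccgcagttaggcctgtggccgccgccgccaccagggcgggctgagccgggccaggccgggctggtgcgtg
Hoxd8 (chr2:74704365-74704664, plus strand): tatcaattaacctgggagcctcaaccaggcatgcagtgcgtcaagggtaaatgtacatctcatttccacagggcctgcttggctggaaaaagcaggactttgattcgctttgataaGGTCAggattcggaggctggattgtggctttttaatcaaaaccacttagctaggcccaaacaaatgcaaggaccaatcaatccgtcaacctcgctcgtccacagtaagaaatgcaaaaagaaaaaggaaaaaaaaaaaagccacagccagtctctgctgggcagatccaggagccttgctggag
The core occurred in Hoxd13, Hoxd10 and Hoxd8 and not in Hoxd9, so it was present at genes that rose and at a gene that fell. Of the 33 members, 17 matched the RefSeq table, with 19 start regions, and 8 of the 19 held GGTCA on either strand, against 40.5% of 32851 regions of that length. The full palindrome, GGTCA and TGACC with any bases NNN between them, occurred in 0 of 19 and in 0.07% of all. On both strands, the androgen response core AGAACA occurred in 1 of 19 (19% of all) and the Cdx motif TTTATG in 2 of 19 (11.9%). CpG dinucleotides, the usual target of DNA methylation in mammals, numbered 37 in the Hoxd13 region, 22 in Hoxd10, 20 in Hoxd9 and 6 in Hoxd8, with a median of 20 over the 19 and of 7 over all regions. A match describes letters and not a bound site.

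Hoxd13 encodes the most posterior factor of the cluster and is required for normal digits and accessory sex glands. It read 8.51, 8.57 and 8.68 in WT_vehicle and 9.49, 9.68 and 9.21 in WT_DES. It read 8.58, 8.79 and 8.496 in aERKO_vehicle and 8.72, 8.69 and 8.55 in aERKO_DES. The WT_DES arrays stood above the other 9, which overlapped one another. Hoxd13 rose by 0.88 ± 0.113 (SE, n = 3 per group; 1.84-fold; adjusted p = 6.14e-05, limma). In each fit that left out 1 array, the rise lay between 0.77 and 1.00.

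Hoxd10, another posterior gene used in the limb and spinal cord, read 6.96, 6.90 and 7.05 in WT_vehicle and 7.53, 7.90 and 7.20 in WT_DES. Its values were 6.90, 7.18 and 6.88 in aERKO_vehicle and 7.08, 6.997 and 7.07 in aERKO_DES. WT_DES 3 came close to aERKO_vehicle 2, and WT_DES 2 lay far above both. The rise in WT was 0.57 ± 0.14 (1.49-fold; adjusted p = 0.00586, limma), and 0.40 without WT_DES 2. Between these genes, Hoxd11, which acts in the kidney and forearm, read 7.64, 7.65 and 7.58 in WT_vehicle and 7.87, 7.97 and 7.68 in WT_DES. The groups did not overlap, but the difference of 0.22 ± 0.085 missed the threshold (adjusted p = 0.0563, limma); it was called without WT_DES 3 (0.30, adjusted p = 0.0127) and without aERKO_DES 3 (adjusted p = 0.041). For Hoxd12, which is expressed with Hoxd13 in the limb bud, WT_vehicle lay at 6.58, 6.65 and 6.57 and WT_DES at 6.61, 6.69 and 6.78. These overlapped, with a difference of 0.096 ± 0.08 (adjusted p = 0.339, limma). In aERKO it read 6.74, 6.62 and 6.81 with vehicle and 6.75, 6.92 and 7.01 with DES, and the last 2 were the highest of the 12 arrays.

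Hoxd9, a gene of the hindlimb level, read 7.86, 8.06 and 7.92 in WT_vehicle and 7.71, 7.33 and 7.48 in WT_DES. In aERKO it read 7.99, 8.17 and 8.25 with vehicle and 8.04, 7.90 and 8.15 with DES. All 3 WT_DES values were below the other 9, and the gene fell by 0.44 ± 0.106 (1.36-fold; adjusted p = 0.0056, limma). Hoxd8, a gene of the trunk level, read 8.42, 8.56 and 8.51 in WT_vehicle, 8.11, 7.91 and 7.94 in WT_DES, 8.499, 8.49 and 8.47 in aERKO_vehicle and 8.45, 8.47 and 8.39 in aERKO_DES. Again the WT_DES arrays were lowest and the other 9 lay within a narrow band. Hoxd8 fell by 0.51 ± 0.068 (1.43-fold; adjusted p = 8.38e-05, limma). With the arrays shifted to the hybridization controls the declines of Hoxd9 and Hoxd8 were -0.082 and -0.15, without a call.

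**Figure D2:**
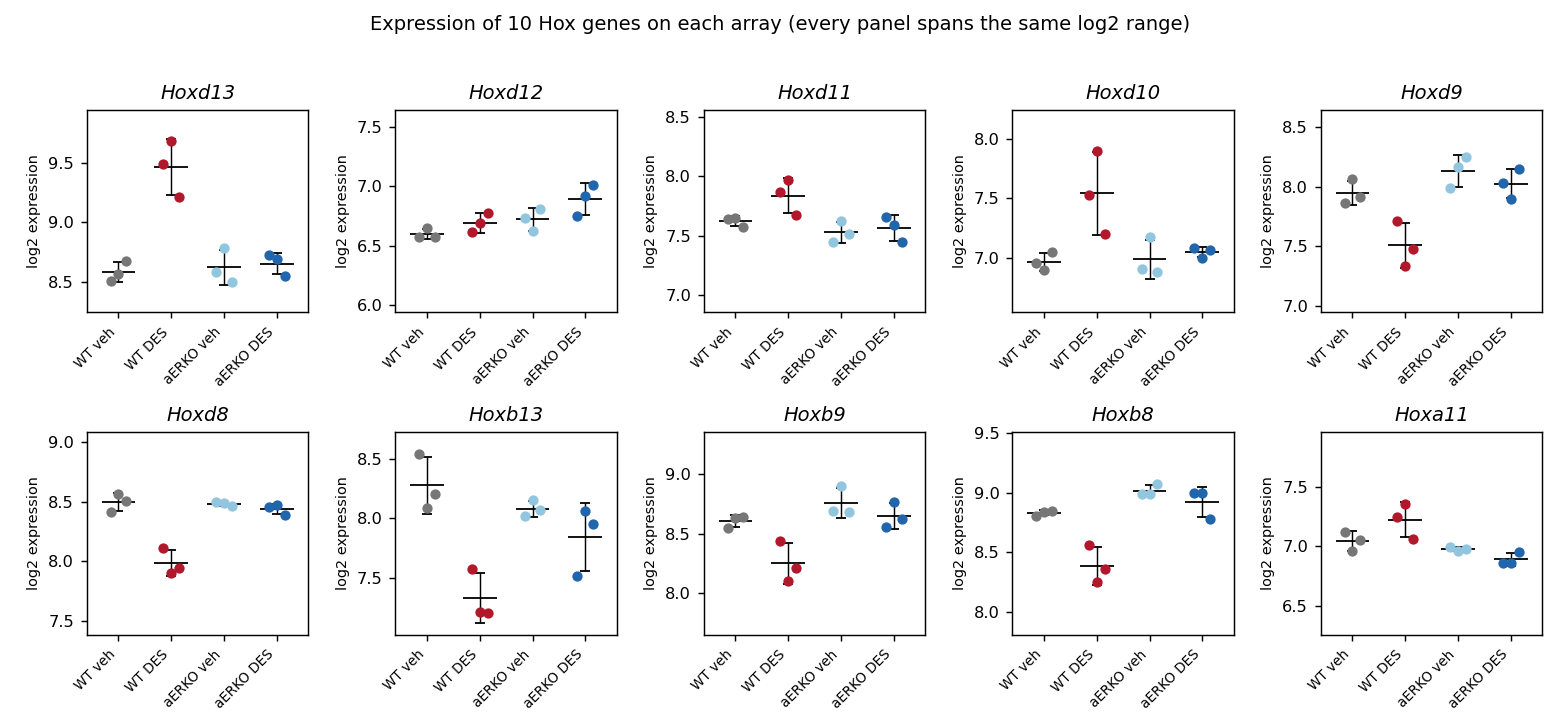
Log2 expression (vertical axis, the same span in every panel) of 10 Hox genes on each of the 3 arrays of the 4 groups (horizontal axis); points are arrays, long lines group means and error bars SD. The WT_DES points (red) stand above the others for Hoxd13 and below them for Hoxd9, Hoxd8, Hoxb9 and Hoxb8; for Hoxb13, 1 aERKO_DES array at 7.52 lies among them.

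A shift of a whole array cancels in the contrast within cluster D, since both genes are read on the same array. A normalization that depends on signal level need not cancel. After quantile normalization Hoxd13, Hoxd10, Hoxd9 and Hoxd8 kept their calls in WT. With each gene set to 0 at its WT_vehicle mean, Hoxd13 minus Hoxd8 was 1.29, 1.69 and 1.18 on the WT_DES arrays and between -0.083 and 0.21 on the other 9. Hoxd10 minus Hoxd9 was 0.80, 1.54 and 0.70 on the WT_DES arrays and between -0.39 and 0.11 elsewhere. These pairs were chosen after their values were seen and describe these arrays only: the 5′ and 3′ neighbours changed unequally, whichever of them is taken as the fixed point.

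Cluster B held the largest decline. Hoxb13, which is set apart at the 5′ end of the cluster and marks the prostate and hindgut, read 8.54, 8.08 and 8.20 in WT_vehicle and 7.57, 7.21 and 7.20 in WT_DES. It read 8.02, 8.15 and 8.07 in aERKO_vehicle and 7.52, 8.06 and 7.95 in aERKO_DES. WT_DES lay wholly below both vehicle groups, but aERKO_DES 1 fell inside the WT_DES range. Hoxb13 fell by 0.95 ± 0.151 in WT (1.93-fold; adjusted p = 0.000334, limma), and by 0.59 with the hybridization controls (adjusted p = 0.00637, limma).

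Genes of the prostate and coagulating gland, which adjoin the seminal vesicle and express Hoxb13, also varied between arrays. Their mean was 10.2, 9.13 and 9.26 in WT_vehicle, 9.56, 8.86 and 9.20 in WT_DES, 9.05, 9.37 and 9.31 in aERKO_vehicle and 8.80, 9.13 and 9.39 in aERKO_DES. In WT_DES 0 of 12 were higher and 5 lower, or 1 and 3 after scaling to the hybridization controls. Over all genes the shares were 20.7% and 23.3%, or 41.5% and 1.74% with those controls. The 5 lower genes were Fgl1 (-1.63), Gsdma (-1.44), Spink1 (-0.93), Tgm4 (-0.70) and Pbsn (-0.60). Spink1 also belongs to the secretory list above. The 2 genes with positive differences, Msmb (1.35 ± 1.239) and Defb50 (1.06 ± 0.72), were not called, and the mean carries their spread. WT_vehicle 1 was highest in both this mean and Hoxb13, and aERKO_DES 1 had the lowest mean and the lowest Hoxb13 outside WT_DES. WT_DES 1 had a higher mean (9.56) than WT_vehicle 2 and 3 and a lower Hoxb13 (7.57). The mean of WT_DES 3 (9.20) lay between those of WT_vehicle 2 and 3, with Hoxb13 at 7.20. WT_DES 2 lay below WT_vehicle in both (8.86 and 7.21). The part of carried-over gland tissue in the Hoxb13 values was not tested. Without WT_vehicle 1 the fall of Hoxb13 in WT was -0.82 (adjusted p = 0.00175, limma).

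Mir196a-1, the gene of microRNA miR-196a, lies between Hoxb13 and Hoxb9. It is shown with its relatives because the miR-196 family is encoded inside Hox clusters and is known to pair with the Hoxb8 transcript. Capitals mark the seed, bases 2 to 8, which chooses the targets; sequences are RefSeq's (GRCm38.p6), 5′ to 3′.
mmu-miR-196a-5p from Mir196a-1 (chr11:96265187-96265208, plus strand): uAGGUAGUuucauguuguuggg
mmu-miR-196a-1-3p from Mir196a-1 (chr11:96265225-96265246, plus strand): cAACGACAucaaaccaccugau
mmu-miR-196a-2-3p from Mir196a-2 (chr15:102973401-102973422, plus strand): uCGGCAACaagaaacugccuga
The 5p arm is the same letter for letter from Mir196a-2 in cluster C, and the 3p arms differ in seed. Because the array used total RNA with probe sets on the gene, the values refer to RNA of the locus and not to the mature microRNA. Mir196a-1 read 7.53, 7.60 and 7.48 in WT_vehicle, 6.91, 6.55 and 6.43 in WT_DES, 7.37, 7.63 and 7.21 in aERKO_vehicle and 7.32, 7.46 and 6.96 in aERKO_DES. WT_DES was lowest throughout, although aERKO_DES 3 came near it. The locus fell by 0.91 ± 0.147 (adjusted p = 0.000365, limma), and by 0.55 with the hybridization controls (adjusted p = 0.00349, limma). Both this locus and Hoxb13 were thus lower under both scalings, unlike Hoxb9, the Hox gene nearest to the locus, whose values follow. Mir196a-2 read 5.33 to 6.01 over the 12 arrays and was not tested.

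Hoxb9, which patterns the thorax, read 8.55, 8.63 and 8.64 in WT_vehicle and 8.44, 8.10 and 8.21 in WT_DES, and fell by 0.35 ± 0.095 (adjusted p = 0.0105, limma). Next to it Hoxb8, known from neural and blood development, read 8.81, 8.84 and 8.85 in WT_vehicle and 8.56, 8.25 and 8.36 in WT_DES, and fell by 0.45 ± 0.085 (adjusted p = 0.00126, limma). In both genes the WT_DES arrays were the lowest of the 12. With the hybridization controls, Hoxb9 turned to 0.004 and Hoxb8 to -0.088, without a call.

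The middle of cluster B held no called gene. Hoxb7, Hoxb6, Hoxb5 and Hoxb3 differed by -0.10, -0.028, 0.013 and -0.021 in WT, with adjusted p between 0.215 and 0.918 (limma). At the 3′ end, the hindbrain genes Hoxb2 and Hoxb1 fell by 0.28 ± 0.071 and 0.39 ± 0.098 (adjusted p = 0.00713 for each, limma). The antisense transcript gene Hoxb3os, which lies beside Hoxb2, fell by 0.44 ± 0.081 (adjusted p = 0.000953, limma); strand was not checked here, and the value with the hybridization controls was -0.085 without a call. Declines thus lay at both ends of the cluster, with 4 uncalled genes between them. Of these, Hoxb7 was called lower after quantile normalization and after shifting the arrays to equal medians.

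Cluster C held 3 small declines and no rise. Hoxc12 read 6.93, 6.94 and 6.85 in WT_vehicle and 6.49, 6.18 and 6.61 in WT_DES, and fell by 0.48 ± 0.105 (adjusted p = 0.00305, limma). For Hoxc6, a thoracic gene also expressed in prostate, WT_vehicle read 6.97, 6.81 and 6.90 and WT_DES 6.58, 6.33 and 6.63, a fall of 0.38 ± 0.091 (adjusted p = 0.00528, limma). Hoxc11 fell by 0.31 ± 0.114 (adjusted p = 0.0446, limma). The call of Hoxc11 was lost without WT_vehicle 1, 2 or 3, WT_DES 2, aERKO_vehicle 1 or 3, or aERKO_DES 2, with a difference of -0.18 without WT_DES 2 and -0.29 to -0.32 otherwise. In these 3 genes WT_DES 2 was the lowest array. The hair-follicle gene Hoxc13 (-0.16), Hoxc9 (-0.19) and Hoxc8 (-0.26) were not called, with adjusted p of 0.166, 0.152 and 0.145 (limma). The 95% intervals of these 3 reach -0.35, -0.42 and -0.56, so declines of that size could not be told from 0. Hotair, the long non-coding RNA gene between Hoxc12 and Hoxc11, was not tested, with values from 5.04 to 6.11, and Mir615 differed by -0.21 (adjusted p = 0.272, limma).

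Cluster A contains the genes best known from the male duct, and its 5′ members showed no called change. Hoxa13 read 7.995, 8.05 and 8.18 in WT_vehicle and 8.12, 8.15 and 8.20 in WT_DES, a difference of 0.081 ± 0.065 (adjusted p = 0.323, limma). Hoxa10, whose loss in mice causes undescended testes, differed by 0.072 ± 0.063 (adjusted p = 0.361, limma), with values from 7.73 to 7.94 over all 12 arrays. Hoxa11, needed for the vas deferens, read 7.12, 6.96 and 7.06 in WT_vehicle and 7.25, 7.36 and 7.07 in WT_DES, a difference of 0.18 ± 0.078 (adjusted p = 0.0811, limma). The upper 95% limits were 0.22, 0.21 and 0.35. Without WT_DES 3, Hoxa11 was called higher, by 0.26 (adjusted p = 0.0137, limma). At the 3′ end, Hoxa4 read 7.40, 7.45 and 7.35 in WT_vehicle and 7.02, 6.80 and 7.04 in WT_DES and fell by 0.45 ± 0.12 (adjusted p = 0.00983, limma). Hoxa3, a gene of the pharyngeal arches, fell by 0.21 ± 0.077 (adjusted p = 0.0457, limma). That call stood at the edge: it was kept without aERKO_vehicle 2 or 3 or aERKO_DES 3 and lost without any of the other 9 arrays, with differences from -0.16 to -0.23. Hoxa6 and Hoxa5 were not called, at -0.076 and 0.11.

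Paralogues are copies of the same ancestral gene and often share functions, yet those numbered 13 did not all move together. Among the paralogues numbered 13, the 95% interval in WT was 0.64 to 1.13 for Hoxd13, -0.06 to 0.22 for Hoxa13, -0.35 to 0.037 for Hoxc13 and -1.28 to -0.62 for Hoxb13. The intervals of Hoxd13 and Hoxb13 overlapped none of the others. With each gene set to 0 at its WT_vehicle mean, Hoxd13 minus Hoxb13 was 1.61, 2.17 and 1.71 on the WT_DES arrays. On the other 9 it was -0.34 to 0.90, the highest of these being aERKO_DES 1. A shift of a whole array cancels in this measure. Of the paralogues numbered 8, Hoxb8 and Hoxd8 fell, and Hoxc8 was lower without a call (-0.26, 95% interval -0.56 to 0.044). Of those numbered 9, Hoxb9 and Hoxd9 fell, and Hoxc9 was lower without a call (-0.19, 95% interval -0.42 to 0.037). Whether the genes within either set differed in response was not tested.

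**Figure D3:**
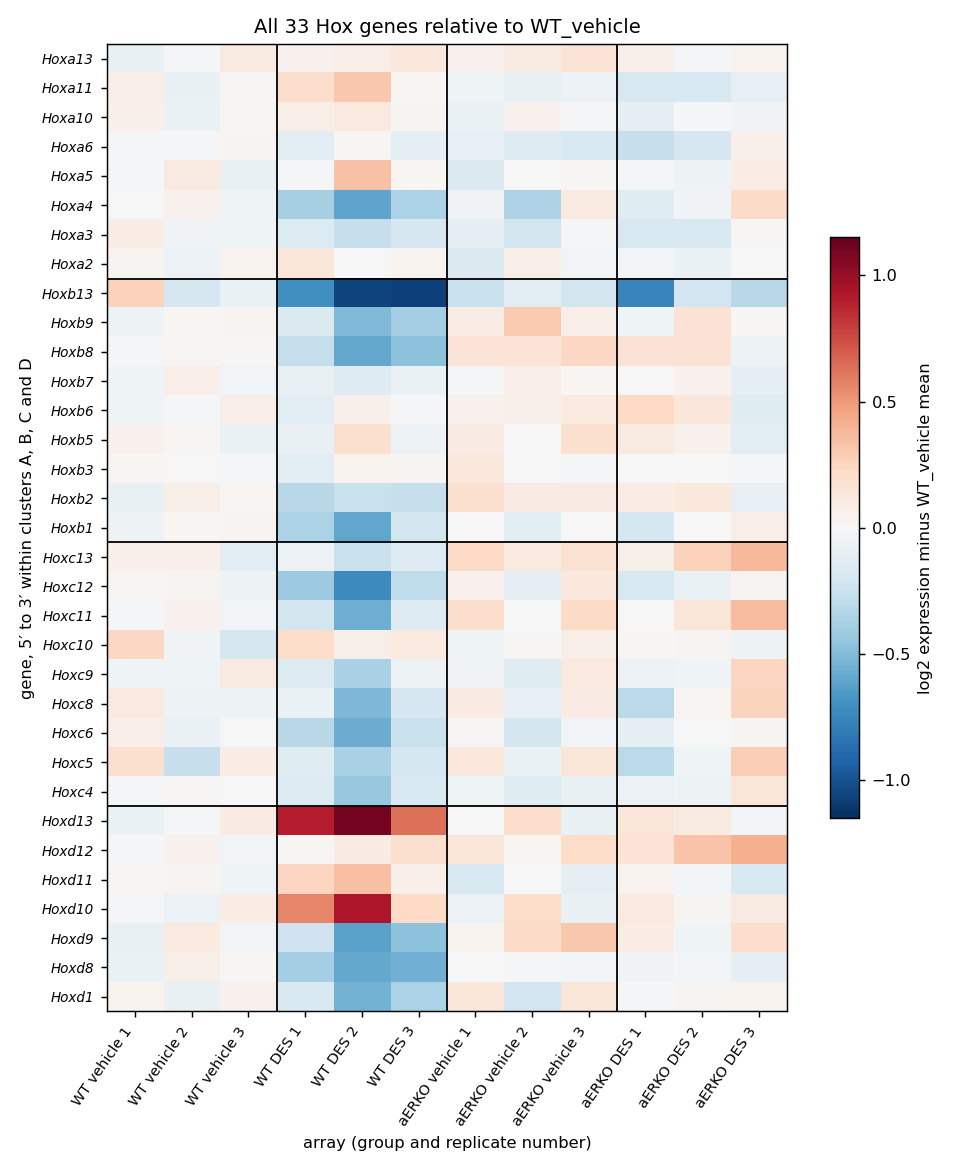
Log2 expression of all 33 Hox genes (rows, 5′ to 3′ within clusters A to D) on the 12 arrays (columns), minus the WT_vehicle mean of each gene; red is higher and blue lower. The 3 WT_DES columns carry the strongest colours, with red at Hoxd13 and Hoxd10 and blue at Hoxb13, and WT_DES 2 is the most extreme column for many genes.

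In aERKO males no Hox gene was called after DES. None of the 28 passed the adjusted threshold and none had an unadjusted p under 0.05 (limma), beside 0% of all genes called and 264 genes with an unadjusted p under 0.05. The groups did not overlap for 1 Hox gene, Hoxa11, against 6.11% of all genes. The largest difference in size was that of Hoxb13, at -0.24 with a 95% interval from -0.57 to 0.092, so a decline smaller than the one in WT could not be told from 0. For Hoxd13 the difference was 0.03, with an interval from -0.22 to 0.28, whose upper limit lies below the rise seen in WT. Hoxd10 differed by 0.061 (-0.24 to 0.36) and Hoxd8 by -0.046 (-0.19 to 0.10). Hoxd12 had the smallest p of the named genes, with a difference of 0.17 (unadjusted p = 0.0505, limma).

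The test of the difference between the responses, WT minus aERKO, called 5 of the 28 Hox genes, beside 23.3% of all genes (14.1% higher and 9.16% lower). Hoxd13 responded more upward in WT, by 0.85 ± 0.159 (adjusted p = 0.00237, limma), and Hoxd8 more downward, by -0.47 ± 0.096 (adjusted p = 0.00453, limma). Both calls held in each of the 12 fits without 1 array. The other 3 were Hoxb13 (-0.71 ± 0.214, adjusted p = 0.0316), Hoxa4 (-0.56 ± 0.169, 0.0319) and Hoxc6 (-0.43 ± 0.129, 0.0299; limma). Each of these 3 calls was lost in some of the fits without 1 array. For Hoxb13 the call was lost without WT_vehicle 1, WT_DES 2 or 3, aERKO_vehicle 1 or 3, or aERKO_DES 2 or 3, with differences from -0.58 to -0.71 and adjusted p from 0.0529 to 0.0784 (limma). For Hoxa4 it was lost without WT_vehicle 1, 2 or 3, WT_DES 2, aERKO_vehicle 2, or aERKO_DES 2 or 3, with differences from -0.43 to -0.59. For Hoxc6 it was lost without WT_vehicle 1 or 3, WT_DES 2, aERKO_vehicle 2, or aERKO_DES 2 or 3, with differences from -0.34 to -0.43. Hoxd10 (0.51, adjusted p = 0.0776) and Hoxb8 (-0.35, adjusted p = 0.0527) were not called (limma), so for them, as for 9 of the 14 genes called in WT, a difference between genotypes was not shown. Leaving out 1 array brought some uncalled genes past the threshold: Hoxd10 (0.68), Hoxa11 (0.34), Hoxb1 (-0.48) and Hoxc12 (-0.48) without WT_DES 3, Hoxb8 (-0.44) and Hoxd9 (-0.43) without WT_DES 1, Hoxb8 (-0.43) without aERKO_DES 3 and Hoxb1 (-0.48) without aERKO_DES 1. With the hybridization controls Hoxd13 remained called (1.08, adjusted p = 0.000527), Hoxd10 passed (0.74, adjusted p = 0.0369; limma) and none of the 4 negative differences did. Of the cluster's non-coding genes, Mir196a-1 differed by -0.75 (adjusted p = 0.0214) and Hoxb3os by -0.36 (adjusted p = 0.0402; limma). With the hybridization controls both calls were lost (Mir196a-1 -0.53, adjusted p = 0.0989; Hoxb3os -0.14, adjusted p = 0.782; limma). The first lost its call without WT_vehicle 2, WT_DES 2 or aERKO_DES 2 (-0.65 to -0.72) and the second in 9 of the 12 fits without 1 array (-0.28 to -0.39), all but those without WT_DES 1 or 3 or aERKO_vehicle 1.

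Without DES the genotypes differed little. Comparing aERKO_vehicle with WT_vehicle, 0 of 28 Hox genes were called, beside 0.0249% of all genes (0.00995% higher and 0.0149% lower), and 1 had an unadjusted p under 0.05 (limma): Hoxb8, higher by 0.19 in aERKO (0.0499). The largest difference in size was 0.20, and 5 genes had groups without overlap, against 12.2% of all genes.

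With DES given to both, 16 of 28 Hox genes differed between aERKO_DES and WT_DES, or 57.1% beside 52.1% of all genes (27.5% higher and 24.6% lower). Their values did not overlap for 16 genes, against 55.9% of all. In aERKO_DES 12 were higher, with Hoxb8 (0.54 ± 0.085), Hoxd9 (0.52 ± 0.106) and Hoxb13 (0.52 ± 0.151) the largest, and 4 were lower: Hoxd13 (-0.81 ± 0.113, adjusted p = 0.000111), Hoxd10 (-0.49 ± 0.14, 0.0118), Hoxa11 (-0.33 ± 0.078, 0.00449) and Hoxd11 (-0.27 ± 0.085, 0.0185; limma). Hoxa11 and Hoxd11 were called here and not in the comparison of DES with vehicle in WT. The call of Hoxb13 was lost without WT_DES 2 or aERKO_DES 2 or 3 (0.41 to 0.46), and that of Hoxd11 without WT_DES 1 or 2 or aERKO_DES 3 (-0.21 to -0.26). The WT_DES arrays enter both comparisons, so the counts are not independent. With the hybridization controls the 12 higher calls fell to 0.

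The calls of most small declines depended on how the arrays were scaled. Shifting each array to the hybridization controls moved the median of all genes in WT from -0.05 to 0.31 and gave 8 higher and 1 lower Hox genes of 28, beside 41.5% higher and 1.74% lower of all genes. Hoxd13 (1.24, adjusted p = 5.48e-08) and Hoxd10 (0.93, adjusted p = 4.62e-05; limma) stayed higher and Hoxb13 (-0.59) stayed lower. The posterior genes Hoxa13, Hoxa11, Hoxa10, Hoxd12 and Hoxd11 and also Hoxa5 were then called higher, by 0.43 to 0.57. Hoxa3, Hoxb9, Hoxb2 and Hoxc11 turned positive without a call, at 0.15, 0.004, 0.074 and 0.049. With the arrays shifted to equal medians, the median of all genes was -0.12 and the counts were 2 higher and 13 lower, beside 16.9% and 35.4% of all genes. Hoxd13, Hoxd10 and Hoxb13 kept their direction and call under these scalings. The other declines kept their calls with equal medians and lost them with the hybridization controls. Those calls thus depended on the level at which the arrays were set. A shift of a whole array leaves the differences between genes on it unchanged.

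**Figure D4:**
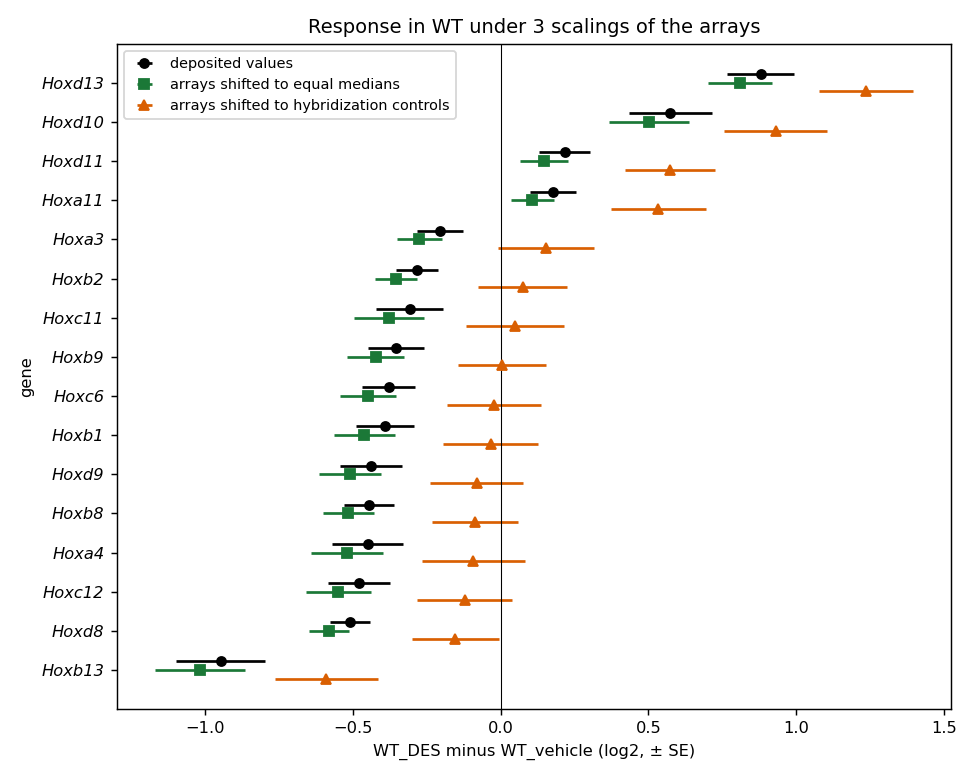
Difference between WT_DES and WT_vehicle (horizontal axis, log2, with SE) for the 14 called Hox genes and Hoxa11 and Hoxd11 (vertical axis), from the deposited values and after shifting the arrays to equal medians or to the hybridization controls. Hoxd13 and Hoxd10 lie above 0 and Hoxb13 below 0 under all 3, whereas the other declines gather near 0 with the hybridization controls.

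In the lists that follow, counts stand beside 20.7% higher and 23.3% lower of all genes, or 41.5% and 1.74% with the hybridization controls, and nothing particular to a list is read from them. Hox proteins bind DNA together with TALE homeodomain partners of the Pbx, Meis and Pknox families. The cofactor list of 10 tested genes also held Hmx1 and Gmnn, which belong to none of these families. Of the 10, 3 were called higher and 2 lower, or 3 and 0 after scaling to the hybridization controls. Meis2 rose by 0.72 ± 0.098 (adjusted p = 9.56e-05), Pknox2 by 0.53 ± 0.086 (0.000362) and Meis1 by 0.51 ± 0.106 (0.00214; limma), and each also differed between the genotypes' responses (0.71, 0.60 and 0.47; adjusted p = 0.00292, 0.00382 and 0.0396). The 2 lower genes were Pbx3, which fell by 0.23 (adjusted p = 0.00703, limma), and Hmx1, which fell by 0.39. With the hybridization controls Hmx1 stood at -0.036. Cdx factors act upstream of Hox genes in the embryo; Cdx1 fell by 0.43 and Cdx2 by 0.26 among 7 tested genes of their list, and with the hybridization controls they stood at -0.068 and 0.097 without a call.

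Retinoic acid is a classical inducer of Hox clusters, and genes that make and handle it were counted in the same way. Among 17 tested, 6 were higher and 3 lower; scaling to the hybridization controls gave 9 and 0. Aldh1a3 and Aldh1a2, which synthesise retinoic acid, rose by 1.36 ± 0.109 and 0.77 ± 0.10 (adjusted p = 9.25e-07 and 6.79e-05, limma). Dhrs3, which returns retinal to retinol, rose by 1.04 ± 0.091, and Stra6, a retinol transporter, by 0.77 ± 0.087 (adjusted p = 2.05e-06 and 2.1e-05, limma). All 4 differed between the genotypes' responses, by 1.35, 0.74, 1.04 and 0.73. The 3 lower genes were Crabp1 (-0.38), Rdh10 (-0.35) and Cyp26a1 (-0.33), with adjusted p of 0.00708, 0.0114 and 0.0103 (limma). None of them was called lower with the hybridization controls.

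Polycomb proteins hold Hox clusters silent and trithorax proteins keep them active. Polycomb genes split evenly, 5 higher and 5 lower of 31, but scaling to the hybridization controls gave 18 and 1. The methyltransferase gene Ezh2 rose by 0.39, and its partners Mtf2 and Aebp2 by 0.54 and 0.38, while Phf19, a partner that reads methylated histone, fell by 0.71. Among 20 trithorax genes, 3 were higher and 1 lower (12 and 0 under that scaling): the chromatin remodeller gene Chd7 rose by 0.71, Kmt2a by 0.33 and Kmt2d by 0.32, and the menin gene Men1 fell by 0.66, or by 0.30 without a call with those controls. Of 11 genes of chromatin looping, which partitions the Hox clusters, 6 rose and 0 fell (10 and 0), among them Pds5b by 0.58 and the insulator gene Ctcf by 0.34. No gene of these lists was called in aERKO, where no gene on the array passed the threshold after DES (limma).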

How the data were processed

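RNA from 12 seminal vesicle samples was read on Affymetrix mouse transcriptome arrays, 3 in each of 4 groups taken from the labels. The deposited values are log2 expression, which the authors made with Affymetrix Expression Console and RMA, per the submitters' processing notes. The sources used here give no version, setting or genome build. RMA sets all arrays to a common distribution, so a real shift of many genes in WT_DES can appear as small opposite shifts of others.

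Of 72688 probe sets, 30604 carry 1 symbol in the platform annotation, 2146 several and 39938 none; 1135 symbols were updated through RefSeq. A gene was represented by its probe set with the highest mean. The filter kept 20102 genes, those that exceeded the median of an array's probe sets on 3 or more of the 12 arrays, and removed 9961. limma 3.58.1 in R 4.3.3 fitted all 12 arrays in 1 model with a mean per group, eBayes moderation (8 residual and 4.33 prior degrees of freedom) and Benjamini-Hochberg adjustment over all 20102 genes, two-sided, with a threshold of 0.05; it was first tested on simulated data. Called genes, paralogues 9 to 13 and genes that turn direction under a scaling are named; others are counted. From related lists, up to 4 genes with the largest called differences are named, and also all lower calls of the cofactor and retinoic acid lists. Members and lists were chosen with earlier results of these data known. Alternatives were other filters, probe set rules, moderation, array weights, scalings, a replicate block, a minimum fold of 2, and fits without each array in turn; leaving out both DES arrays numbered 3 was added after seeing the data. Motifs were searched by exact match on both strands.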

Additional observations from a re-analysis of the deposited data

Results flagged for a closer look

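Among the Hox genes and the non-coding genes of their clusters, 7 responded differently to DES in WT and aERKO by the test of that difference (WT response minus aERKO response, limma, n = 3 per group). Hoxd13 stood at 0.85, with a rise on all 3 WT_DES arrays and overlapping aERKO groups. Hoxd8 stood at -0.47, Hoxb13 at -0.71, Hoxa4 at -0.56 and Hoxc6 at -0.43. Of the non-coding genes, Mir196a-1 stood at -0.75 and Hoxb3os at -0.36. With the hybridization controls, Hoxd13 kept its call and the other 6 lost theirs. The same test called 23.3% of all genes.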

How the results depend on the processing

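In WT, the 2 higher Hox genes became 4 with array weights, 4 without both DES arrays numbered 3, 8 with the hybridization controls and 0 at a fold of at least 2. The 12 lower became 7 with the filter at the 75th percentile, which left the other 5 and Hoxd10 untested, 1 with the hybridization controls and 0 at that fold. With the hybridization controls Hoxa3 (0.152), Hoxb9 (0.004), Hoxb2 (0.074) and Hoxc11 (0.049) turned direction without a call. For the difference of responses, the 1 higher became 3 with array weights, 3 without both DES arrays numbered 3, 2 with the hybridization controls and 0 at the fold. The 4 lower became 8 with array weights, 7 with quantile normalization, 7 with equal medians, 0 with the hybridization controls and 0 at the fold. Between genotypes given DES, the 12 higher became 7 with the 75th percentile filter, 0 with the hybridization controls and 0 at the fold, and the 4 lower became 2 with that filter and 0 at the fold. The cause of these changes was not tested, apart from fewer genes under the filter and the fold. Leaving out each array in turn gave 2 to 4 higher and 10 to 12 lower in WT, 1 to 3 and 1 to 6 for the difference, and 11 to 14 and 3 to 4 between genotypes given DES; the 2 remaining comparisons gave 0 throughout. Arrays of the same replicate number did not consistently deviate together (18 pairs, correlations -0.36 to 0.52), although WT_DES 3, aERKO_vehicle 3 and aERKO_DES 3 did (0.37 to 0.52), so the numbers were not taken to pair the samples; with the number as a block the counts were 3 and 13 in WT, 1 and 6 for the difference, 14 and 4 given DES and 0 elsewhere. Signal near background limits the dimmest members, and base composition of the probes was not known here.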

Other observations

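Other genes that pattern the urogenital tract were counted beside the Hox clusters in WT_DES. Among 20 homeobox genes of the tract, 1 was called higher and 7 lower; scaling to the hybridization controls gave 7 and 0, so the direction of this list depended on scaling; over all genes the shares were 20.7% and 23.3%, or 41.5% and 1.74% with those controls. The mesenchymal gene Prrx1 rose by 1.05 ± 0.148 (adjusted p = 0.000128, limma), beside the higher fibroblast markers given above. Pax2, which is required for the Wolffian duct, fell by 0.48 ± 0.063, Satb1 by 0.58 ± 0.087 and Zfhx3 by 0.56 ± 0.086 (adjusted p = 6.79e-05, 0.000221 and 0.000256, limma), and with those controls the 3 stood at -0.13, -0.22 and -0.20 without a call.

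Among 28 signalling and transcription factor genes of the tract, 3 were higher and 7 lower, or 13 and 1 under that scaling. Fgf7, a mesenchymal growth factor for seminal vesicle epithelium, rose by 1.05 ± 0.099. Gata2 fell by 0.84 ± 0.121 and kept its call with those controls (-0.48, adjusted p = 0.0083, limma). Bmp7 and Tbx3 fell by 0.70 and 0.60, and stood at -0.35 and -0.24 without a call with them.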
